A study of Mus musculus with 6 samples.

Results

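The genes described here are 42 cell cycle genes, picked by symbol from the 20483 genes of a mouse airway single-cell count table, and 0 of the 42 were absent from it. Of these, 19 act in DNA replication or in the entry into it (S phase) and 23 act in mitosis, the division of the copied chromosomes. They were examined in 2 cell clusters that the authors named, Basal6 and Multiciliated2, against all other clusters and between genotypes. The cells were tracheal epithelial cells of C57BL/6 mice of 12 weeks, differentiated in culture with their upper surface in air (air-liquid interface, ALI). The 3 *WT/WT* mice are numbered 1, 2 and 3, and the 3 *MIS/MIS* mice, called MT1301, MT1306 and MT1383, are homozygous for a missense allele of *Dnaaf5*, a gene needed to assemble the dynein motors of cilia. Each mouse gave 1 library. The allele was made by genome editing in the germ line, so the cultures of these mice carry it in every cell type.

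A basal cell of the airway that divides copies its genome with the help of the minichromosome maintenance (MCM) helicases and nucleotide-making enzymes, and then separates the copies with mitotic cyclins, kinases and spindle proteins. A cell that becomes multiciliated has left the cell cycle for good, yet it must build many centrioles, the bases of its cilia, around short-lived structures called deuterosomes. It is known to run a modified version of the cell cycle program while doing so, driven by *Mcidas*, *Gmnc* and E2F transcription factors, with *Ccno* and *Deup1* as typical genes of this stage.

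Counts are of unique molecular identifiers (UMIs), that is, of captured transcript molecules. The table held 23871 cells, 10457 from *WT/WT* and 13414 from *MIS/MIS* mice, in 16 clusters. Each mouse gave between 100961835 and 153326568 UMIs, with a median per cell between 21327.5 and 35383. A level below is in CPM, the UMIs of a gene summed over the cells of 1 cluster in 1 mouse and scaled to the usual fixed total of UMIs over all genes. A mean is over the 6 mice, with the SD between them, unless stated otherwise. Basal6 held 816 cells (55, 224 and 102 in *WT/WT* mice 1 to 3 and 198, 73 and 164 in MT1301, MT1306 and MT1383), with 2208885 to 8135640 UMIs per mouse, and Multiciliated2 held 857 (55, 202, 64, 139, 55 and 342 in the same order), with 2774228 to 11463158. Cells of these clusters were deep, with a median of 32916 UMIs in Basal6 and 38781 in Multiciliated2, and 6.1% and 12.3% of them had over 7500 genes, the upper limit the study states. The 6 libraries shared 67 barcodes, found on 134 cells, of which 4 lay in Basal6 and 3 in Multiciliated2. No doublet caller was run here.

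The cluster names were checked against marker genes. All 7 basal markers, *Krt5* and *Trp63* among them, reached at least 1 CPM in Basal6, and their sum there was between 4913 and 6755 CPM. All 8 markers of early multiciliated cells, among them *Mcidas*, *Ccno* and *Deup1*, reached 1 CPM in Multiciliated2, and their sum of 1752 CPM was the highest of any cluster. *Gmnc*, also an early marker, was at 5.52 CPM in Multiciliated2, below its 10.2 CPM in Multiciliated3, and at 3.62 CPM in Basal6. The basal markers summed to 520 to 1026 CPM in Multiciliated2. Most of this sum was *Krt15*, at 613 CPM there and 4198 CPM in Basal6. *Krt5* and *Trp63* were at 11.4 and 2.74 CPM in Multiciliated2, against 808 and 78.2 CPM in Basal6. Secretory markers summed to 2389 to 6702 CPM in Basal6 and 2563 to 7259 in Multiciliated2, against 53428 in Secretory1. Of the immune markers, *Cd52* and *Cd3e* were at 0 in both clusters in every mouse, whereas *Lyz2* was at 62.0 CPM in Basal6, 250 CPM in Multiciliated2 and 1172 CPM in Multiciliated3, and the sum reached 183 CPM in Basal6 and 559 CPM in Multiciliated2. Of the fibroblast markers, *Col1a2* was at 0 in both, *Dcn* was at 53.4 CPM in Basal6 and 1.76 CPM in Multiciliated2, and the sum reached 97.0 and 4.80 CPM. The part of such RNA in the results below was not tested.

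Basal6 was the main site of the cell cycle genes. In 36 of the 42 members the highest mean level of the 16 clusters was in Basal6, in the other 6 it was in Multiciliated2, and 0 were highest elsewhere. In 25 members Basal6 came first and Multiciliated2 second. The S-phase members summed to 1482 ± 99.0 CPM (SD, n = 6) in Basal6 and 531 ± 109 CPM in Multiciliated2, and to between 113 CPM in Multiciliated4 and 234 CPM in Basal3 over the other 14 clusters. The mitotic members summed to 3395 ± 599 CPM in Basal6 and 983 ± 123 CPM in Multiciliated2, and to at most 41.4 CPM elsewhere, in Multiciliated3. The authors' clusters were made from the same cells and genes, so differences between clusters are given as descriptions, with no test.

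**Figure D1:**
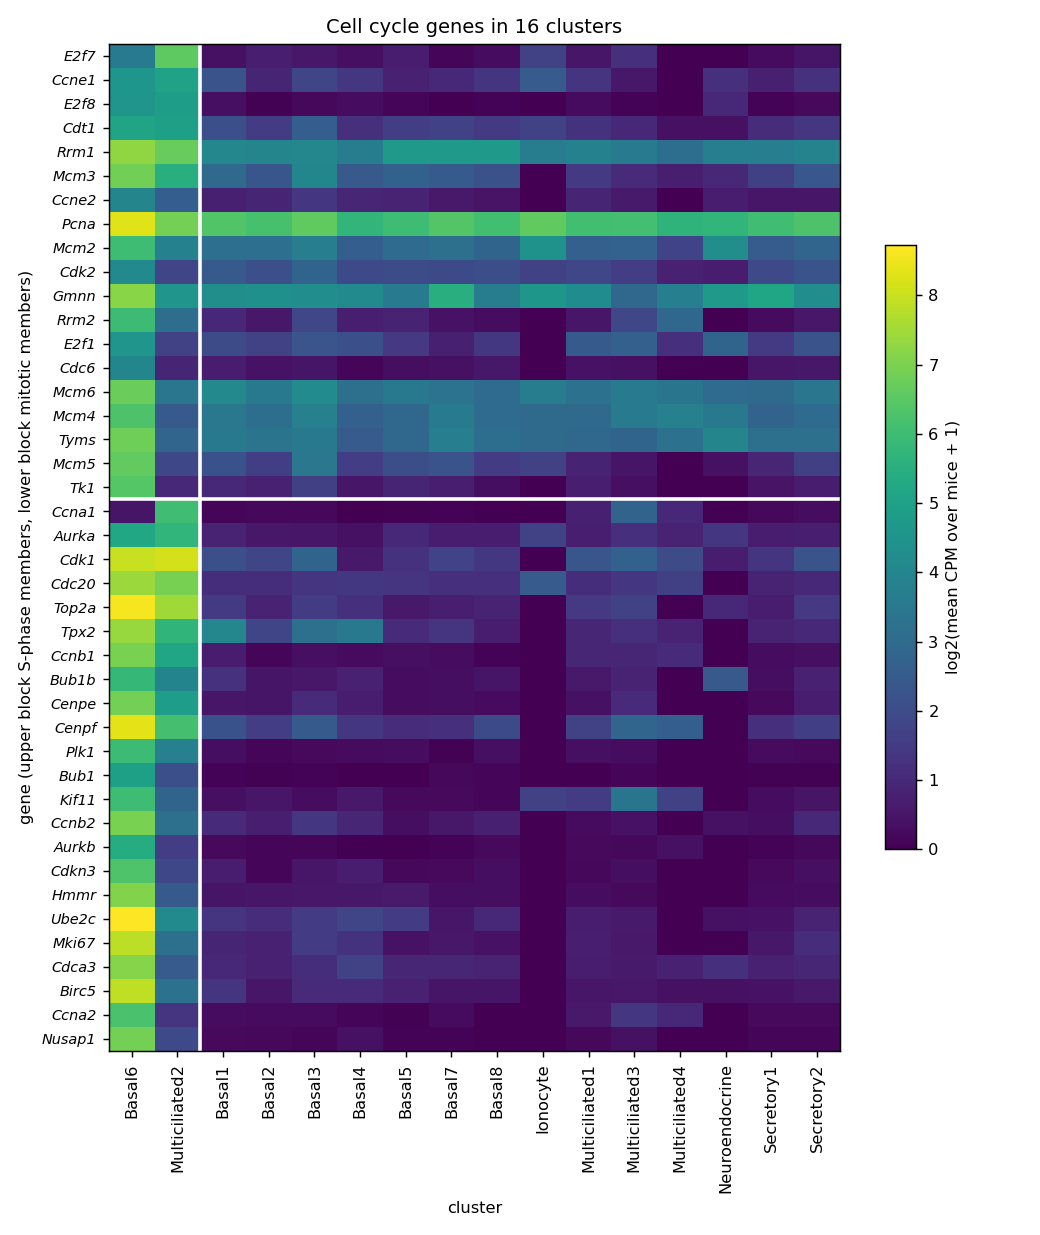
Mean level of each of the 42 members in each of the 16 clusters, coloured by log2(CPM + 1), with S-phase members and mitotic members in separate blocks of rows. Basal6 stands out across nearly all rows, whereas Multiciliated2 shows a subset of them, with *Cdk1*, *Top2a*, *Cdc20*, *E2f7* and *Ccna1* among the strongest.

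Among the S-phase members, the 4 with the highest ratio of Basal6 to all other clusters were *Tk1*, *Mcm5*, *Rrm2* and *Mcm3*. *Tk1*, thymidine kinase, which salvages a DNA building block, was at 82.8, 71.7 and 95.4 CPM in Basal6 of *WT/WT* mice 1 to 3 and at 87.9, 82.9 and 92.5 CPM in MT1301, MT1306 and MT1383. *Mcm5*, a subunit of the replicative helicase, was in the same order at 90.5, 92.1, 99.97, 111, 107 and 88.2 CPM. Both genes varied little between mice, and the genotypes overlapped. *Rrm2*, a subunit of ribonucleotide reductase, which makes deoxynucleotides, was at 54.8, 49.5, 70.9, 76.5, 60.2 and 63.9 CPM. *Mcm3* was at 101, 115, 122, 119, 128 and 101 CPM. With 1 CPM added, the log2 ratio of Basal6 to the sum of all other clusters was 5.68 ± 0.25 (SD, n = 6 mice) for *Tk1*, 4.89 ± 0.33 for *Mcm5*, 4.81 ± 0.20 for *Rrm2* and 4.07 ± 0.28 for *Mcm3*. All 19 S-phase members were higher in Basal6 in 6 of 6 mice, with a median log2 ratio of 3.04.

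The mitotic members were further apart. *Ube2c*, the ubiquitin-conjugating enzyme of the anaphase-promoting complex, was at 329, 405, 536, 475, 313 and 473 CPM in Basal6 of mice 1, 2, 3, MT1301, MT1306 and MT1383. *Birc5*, or survivin, a subunit of the chromosomal passenger complex, was at 246, 198, 272, 226, 190 and 284 CPM. *Mki67*, the source of the Ki-67 proliferation antigen, was at 248, 215, 299.9, 222, 166 and 239 CPM. For all 3 genes the *WT/WT* and *MIS/MIS* values overlapped and MT1306 had the lowest level. *Nusap1*, a protein of the mitotic spindle, was at 105, 100.5, 154, 108, 96.3 and 139 CPM. *Plk1*, a kinase of mitotic entry and spindle formation, was at 59.3, 55.0, 75.4, 62.4, 51.8 and 67.5 CPM. The log2 ratio to all other clusters was 7.29 ± 0.29 for *Ube2c*, 6.90 ± 0.31 for *Birc5*, 6.77 ± 0.28 for *Mki67* and 6.52 ± 0.27 for *Nusap1*. Over the 23 mitotic members the median was 5.42. In all, 41 of the 42 members were over 2-fold higher in Basal6 than in the rest, against 5.51% of 12987 genes with at least 1 CPM, and the exception was *Ccna1*, at -1.69.

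The 2 groups of genes also differ in the letters around their starts. Windows of 300 bases, from 250 before to 50 after the start, were given by RefSeq (GRCm38.p6) for 36 members, 16 S-phase and 20 mitotic. *Ccne2*, *Mcm4*, *Gmnn*, *Ccna2*, *Aurkb* and *Tpx2* had none. The windows were searched on both strands for the CHR element TTTGAA, the CCAAT box, E2F words (TTTCCCGC, TTTGGCGC, TTTGCCGC or TTTCGCGC) and the RFX word GTTGCC. A CHR element, which is known from promoters of late cell cycle genes, was in 14 of 20 mitotic windows (70%) and 2 of 16 S-phase windows (12.5%), against 15.5% of the windows of 16505 genes. A CCAAT box was in 18 mitotic (90%) and 10 S-phase windows (62.5%), against 38.6% of all windows. The 14 mitotic windows with a CHR element all held a CCAAT box too, a pair found in 6.28% of all windows. An E2F word was in 7 S-phase windows (43.8%) and in 1 mitotic window (5%), that of *Cdk1*, against 2.97% of all. Not all of these lay before the start. The only CHR element of *Hmmr*, *Cdca3*, *Plk1*, *Aurka*, *Bub1b* and *Cenpf* came after it, as did the E2F words of *Mcm3* and *Cdt1*. The RFX word, known from genes of cilia, was in 2 windows of each group, 12.5% and 10%, against 12.4%. A match is a description of these letters and not evidence of binding. The windows of *E2f1*, *E2f8* and *Cdca3* lay 466 to 555 bases from the gene's principal annotated start, and all others within 134 bases.

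These promoters are printed because their genes carry the results below. Each is the 250 bases before the start, 5′ to 3′ on the gene's strand, with CHR elements, CCAAT boxes and E2F words of either strand in capitals. *Mcm6*, a helicase subunit, is an S-phase member that stays low in Multiciliated2, *E2f7* is the S-phase member highest there relative to Basal6, and *Cdk1*, *Cdc20* and *Top2a* are the mitotic members that stood highest there against the other multiciliated clusters.
Mcm6, chr1:128359706-128359955, minus strand: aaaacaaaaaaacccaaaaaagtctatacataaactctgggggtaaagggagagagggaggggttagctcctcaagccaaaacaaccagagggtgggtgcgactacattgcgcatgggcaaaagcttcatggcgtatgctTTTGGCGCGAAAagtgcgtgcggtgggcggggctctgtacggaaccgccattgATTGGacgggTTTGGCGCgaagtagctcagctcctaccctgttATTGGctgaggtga
E2f7, chr10:110745189-110745438, plus strand: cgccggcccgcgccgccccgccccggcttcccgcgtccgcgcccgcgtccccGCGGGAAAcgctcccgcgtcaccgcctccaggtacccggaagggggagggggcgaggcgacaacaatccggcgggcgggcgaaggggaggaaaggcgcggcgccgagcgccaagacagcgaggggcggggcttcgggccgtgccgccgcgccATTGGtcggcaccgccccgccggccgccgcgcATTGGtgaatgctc
Cdk1, chr10:69352913-69353162, minus strand: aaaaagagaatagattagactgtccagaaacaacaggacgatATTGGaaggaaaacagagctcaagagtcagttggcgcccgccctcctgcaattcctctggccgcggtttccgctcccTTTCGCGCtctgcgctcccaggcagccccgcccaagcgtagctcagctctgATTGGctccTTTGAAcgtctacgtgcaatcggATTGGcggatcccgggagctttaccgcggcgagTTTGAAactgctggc
Cdc20, chr4:118437344-118437593, minus strand: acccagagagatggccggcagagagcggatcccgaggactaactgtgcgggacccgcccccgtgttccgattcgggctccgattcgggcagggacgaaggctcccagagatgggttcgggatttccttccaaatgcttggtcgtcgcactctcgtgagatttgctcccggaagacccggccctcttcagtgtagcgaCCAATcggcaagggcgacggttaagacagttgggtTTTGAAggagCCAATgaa
Top2a, chr11:99024190-99024439, minus strand: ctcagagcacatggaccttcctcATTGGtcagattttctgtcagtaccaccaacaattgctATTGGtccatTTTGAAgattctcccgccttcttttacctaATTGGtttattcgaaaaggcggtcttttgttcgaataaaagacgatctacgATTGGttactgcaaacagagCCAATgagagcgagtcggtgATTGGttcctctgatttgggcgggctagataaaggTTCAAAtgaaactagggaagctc
The *Mcm6* window holds 3 E2F words, beginning 110, 106 and 47 bases before the start, of which the first overlaps the second on the other strand, and no CHR element. In *E2f7* the E2F word begins 198 bases before the start. *Cdk1* holds all 3 kinds of element, with CHR elements 71 and 15 bases before the start and an E2F word at 131. *Cdc20* has a CHR element 18 bases before the start with a CCAAT box at 8. *Top2a* holds 6 CCAAT boxes and CHR elements 179 and 23 bases before its start.

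Multiciliated2 held some cell cycle transcripts at or above their level in Basal6 and nearly lacked others. The 5 members with the highest ratio of Multiciliated2 to Basal6 were *Ccna1*, *E2f7*, *Aurka*, *Ccne1* and *E2f8*, and *Cdk1* followed. *Ccna1* (chr3:55045469-55055501 in GRCm38, minus strand) encodes cyclin A1, an A-type cyclin best known from the germ line. In Multiciliated2 it was at 44.8, 65.9 and 53.5 CPM in *WT/WT* mice 1 to 3 and at 67.3, 68.1 and 94.1 CPM in MT1301, MT1306 and MT1383. In Basal6 only 13 UMIs of it were counted over all mice, a mean of 0.422 CPM, so that its log2 ratio of 5.53 ± 0.27 (SD, n = 6) depends on the 1 CPM added. The cluster next to Multiciliated2 for *Ccna1* was Multiciliated3, at 5.87 CPM. *E2f7* (chr10:110745439-110787384, plus strand), a repressor of E2F target genes, was at 127, 72.6, 91.3, 91.9, 97.7 and 84.4 CPM, in the same order of mice. Its mean of 94.2 CPM stood against 11.1 CPM in Basal6, a log2 ratio of 2.98 ± 0.44. *Ccna1* and *E2f7* were the 2 members over 2-fold higher in Multiciliated2 than in Basal6, a size reached by 17.7% of 13290 genes.

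The other 4 were close to their Basal6 level. *Aurka* (chr2:172356190-172370535, minus strand), a kinase of centrosomes and spindle poles, was at 43.8, 47.2, 52.5, 53.0, 58.8 and 62.4 CPM, higher than in Basal6 in 6 of 6 mice by 0.53 ± 0.25 on the log2 scale. *Ccne1* (chr7:38097984-38107534, minus strand), cyclin E1, which acts at the entry into S phase, was at 50.9, 24.4, 29.4, 25.4, 38.6 and 20.7 CPM, higher in 4 of 6 mice (0.41 ± 0.53). *E2f8* (chr7:48866429-48881596, minus strand), the close relative of *E2f7*, was at 50.9, 22.9, 20.7, 22.8, 34.2 and 20.3 CPM, higher in 3 of 6 (0.28 ± 0.71). For *Ccne1* and *E2f8* the order of the 2 clusters was within the spread between mice, and *WT/WT* mouse 1 had the highest level of each. *Cdk1* (chr10:69335146-69352938, minus strand), the kinase of mitotic entry, was at 323, 249, 271, 282, 311 and 282 CPM, against 227, 216, 308, 287, 209.8 and 275 CPM in Basal6, with a log2 ratio of 0.18 ± 0.30. Its level did not differ between the 2 clusters beyond the spread. *Cdt1*, a licensing factor of replication origins, *Cdc20*, an activator of the anaphase-promoting complex, and *Rrm1*, the large subunit of ribonucleotide reductase, were less than 2-fold lower, at -0.18 ± 0.47, -0.44 ± 0.39 and -0.55 ± 0.30.

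At the other end were *Tk1*, *Nusap1*, *Ccna2*, *Mcm5* and *Birc5*. *Tk1* was at 1.29, 0.632, 1.80, 0.919, 1.08 and 0.436 CPM in Multiciliated2, and its log2 ratio to Basal6 was -5.44 ± 0.33. *Nusap1* was at 1.93, 1.90, 2.10, 3.37, 5.05 and 2.62 CPM (-4.98 ± 0.58). *Ccna2*, cyclin A2 of dividing cells, was at 0.644, 1.26, 0.901, 1.69, 2.88 and 1.48 CPM (-4.96 ± 0.60). Each of these lay near 1 to 5 CPM, where single UMIs move a value in the smaller libraries. *Mcm5* was at 2.90, 3.29, 3.00, 1.99, 2.52 and 2.44 CPM (-4.75 ± 0.29), and *Birc5* at 6.77, 7.59, 5.10, 6.74, 11.9 and 12.6 CPM (-4.69 ± 0.55). *Mki67* was at 9.02, 9.23, 7.81, 10.4, 6.85 and 6.02 CPM (-4.65 ± 0.36). *Plk1*, at 10.96, 10.2, 11.7, 10.9, 14.4 and 19.2 CPM (-2.20 ± 0.35), and *Top2a*, the topoisomerase that untangles chromosomes, at 147, 157, 175, 159, 189 and 233 CPM (-1.14 ± 0.28), were in between. In Basal6 *Top2a* was at 389.8, 323, 482, 376, 311 and 459.9 CPM, above its Multiciliated2 level in each mouse. In all, 33 of 42 members were over 2-fold lower in Multiciliated2, 14 of 19 S-phase and 19 of 23 mitotic, against 12.9% of all genes. The median log2 ratio was -2.33 for S-phase and -2.84 for mitotic members, against 0.02 over all genes.

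**Figure D2:**
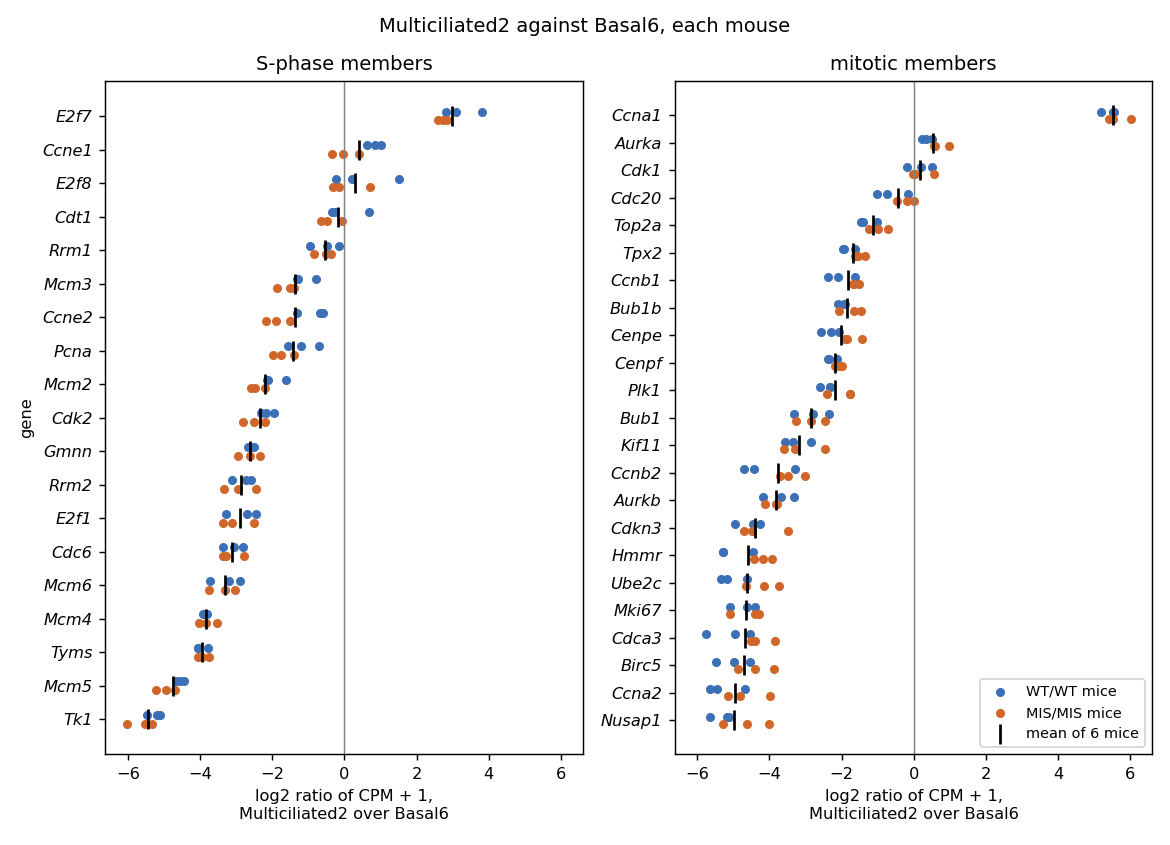
Log2 ratio of Multiciliated2 to Basal6 for each member, with 1 CPM added, ordered by the mean, where each point is 1 mouse, coloured by genotype. The 6 points of *Ccna1* and *E2f7* all lie well above 0, those of *Cdk1*, *Ccne1* and *E2f8* straddle it, and 34 members lie below it in all 6 mice.

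The split ran through pairs of related genes. Of the A-type cyclins, *Ccna1* was at 65.6 ± 16.8 CPM in Multiciliated2 and 0.422 CPM in Basal6, whereas *Ccna2* was at 1.48 ± 0.786 and 73.9 ± 12.2 CPM. Of the Aurora kinases, *Aurka* was at 52.9 CPM in Multiciliated2 and 36.3 in Basal6, and *Aurkb*, the kinase of the chromosomal passenger complex, at 2.00 and 41.4 CPM. *E2f1*, an activating E2F, was at 2.24 CPM against 22.7 in Basal6, the opposite order of *E2f7*. Within B-type cyclins the drop was unequal, with a log2 ratio of -1.83 ± 0.33 for *Ccnb1* (34.0 and 124 CPM) and -3.77 ± 0.66 for *Ccnb2* (8.30 and 124 CPM). The same held for the subunits of ribonucleotide reductase, *Rrm1* at -0.55 ± 0.30 and *Rrm2* at -2.86 ± 0.33. Among the helicase subunits in the member list the ratio was -1.36 ± 0.36 for *Mcm3* and -2.20 ± 0.34 for *Mcm2*. It was -3.32 ± 0.35 for *Mcm6*, -3.83 ± 0.17 for *Mcm4* and -4.75 for *Mcm5*. Transcripts for subunits of a common ring thus did not have a common ratio, and their proteins were not measured. *Pcna*, the sliding clamp of replication, was at 119 ± 38.7 CPM against 312 ± 26.6 (-1.44 ± 0.45). Of the mitotic checkpoint genes *Bub1b* was at -1.86 ± 0.25 and *Bub1* at -2.84 ± 0.40. *Tpx2*, a spindle assembly factor that binds Aurora A, was at -1.67 ± 0.23. The kinetochore genes *Cenpe* and *Cenpf* were at -2.02 ± 0.39 and -2.19 ± 0.15.

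The remaining members fell between these values. *Ccne2* was at -1.37 ± 0.63, *Cdk2*, the partner of E- and A-type cyclins, at -2.33 ± 0.30, and *Gmnn*, geminin, the inhibitor of *Cdt1*, at -2.61 ± 0.20. *Cdc6*, a loading factor of the helicase, was at -3.11 ± 0.26, *Kif11*, a spindle motor, at -3.19 ± 0.45, and *Tyms*, thymidylate synthase, at -3.94 ± 0.14. *Cdkn3*, *Hmmr*, *Ube2c* and *Cdca3* were between -4.67 and -4.39. The S-phase list thus spanned -5.44 to 2.98 and the mitotic list -4.98 to 5.53, with no separation between them by list.

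Compared with the sum of the other 3 multiciliated clusters of the same mouse, Multiciliated2 was higher for 36 of the 41 members with at least 1 CPM, and over 2-fold higher for 32, against 9.46% of 13502 genes. The median log2 ratio was 3.18 for the 23 mitotic members and 1.20 for 18 S-phase members, against -0.19 over all genes. *Top2a* was at 177 ± 31.3 CPM in Multiciliated2 and 2.05 ± 0.576 CPM in the other multiciliated clusters, a log2 ratio of 5.87 ± 0.41. *Cdk1*, *Cdc20* and *E2f7* followed at 5.57 ± 0.17, 5.57 ± 0.21 and 5.56 ± 0.43. Some members of both lists stood no higher there. *Mcm4* at -0.93 ± 0.20 and *E2f1* at -0.91 ± 0.33 were lower in Multiciliated2 in 6 of 6 mice, and *Tyms* (-0.02), *Mcm6* (-0.08), *Kif11* (-0.17) and *Ccna2* (0.12) lay close to 0. For *Mcm4*, Multiciliated2 ranked 16 of the 16 clusters.

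The share of cells with at least 1 UMI gave the same order for the leading genes. *Cdk1* was found in 97.8% ± 2.02 of Multiciliated2 cells and 83.9% ± 6.65 of Basal6 cells (SD, n = 6), or in 69.2% and 52.0% after each cell was thinned to 5000 UMIs, a depth that 0 cells fell below. Secretory1 (median 33387 UMIs) gave 5.16%, or 0.769% thinned, and Multiciliated3 (median 26359.5 UMIs) 13.3%, or 2.46% thinned. The secretory cluster, with few *Mki67* cells, stands here for the background that free RNA can give. *E2f7* was found in 82.4% of Multiciliated2, 26.1% of Basal6 and 0.640% of Secretory1 cells, and thinned in 33.7%, 5.17% and 0.0964%. *Ccna1* was found in 39.3% of Multiciliated2 cells (18.9% thinned), 8.56% of Multiciliated3 cells (2.09%) and 1.55% of Basal6 cells (0.206%), against 0.504% (0.0735%) in Secretory1. *Top2a* was found in similar shares of both clusters, 75.7% in Multiciliated2 and 76.3% in Basal6, or 43.3% and 52.6% thinned. *Mki67* was not: it was found in 23.0% of Multiciliated2 cells and 72.0% of Basal6 cells, or 3.90% and 49.1% thinned, against 1.71% and 0.219% in Secretory1. *Tk1* was found in 5.06% of Multiciliated2 cells (0.579% thinned) and 71.2% of Basal6 cells (29.7%), against 1.44% (0.188%) in Secretory1.

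Most Multiciliated2 cells with *Cdk1* or *Ccna1* also held multiciliated genes, which mark this cluster. Of 829 Multiciliated2 cells with a *Cdk1* UMI, 96.6% had *Ccno*, 96.0% *Foxj1*, the master regulator of motile cilia, 90.3% *Mcidas* and 89.0% *Deup1*. In Basal6 these 4 genes were found in 4.66%, 6.00%, 1.59% and 1.35% of cells. These shares were lower in the 28 Multiciliated2 cells without *Cdk1*, at 82.1%, 75%, 71.4% and 60.7%. Since 829 of the 857 cells had *Cdk1* and these genes mark the cluster, a high overlap was given in advance. Depth was not matched between cells with and without a gene. Of 369 Multiciliated2 cells with *Ccna1*, 99.7% had *Foxj1* and 96.7% *Deup1*, against 92.0% and 81.6% of cells without it, but 81.3% had *Mcidas* and 92.1% *Ccno*, against 96.1% and 99.2%. The levels were also taken without cells that held proliferation transcripts. Over all mice together, 175 of 857 Multiciliated2 cells (20.4%) had a *Mki67* UMI. Without them *Cdk1* kept 93.0% of its level, *E2f7* 94.1%, *Top2a* 91.3%, *Aurka* 88.4% and *Ccna1* 104%, and over the members other than *Mki67* the lowest was 78.4%, for *Ccna2*, and the highest 123%, for *Ccne2*. Without cells holding *Mki67* or *Top2a*, which removes cells by 2 of the members, *E2f7* kept 107% and *Cdk1* 60.5%, but *Aurka* kept 11.5%, *Cdc20* 9.72% and *Ccna1* 5.77%, whereas *Ccne1* stood at 237.7%. This left 12, 48 and 11 cells in *WT/WT* mice 1 to 3 and 31, 15 and 66 in MT1301, MT1306 and MT1383. *Top2a* also rose along the marker score described below, and the part of that in these changes was not tested. Droplets that hold a dividing basal cell and a multiciliated cell together would carry both sets of genes, and their part in these levels was not tested.

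Multiciliated2 was not uniform. Its cells were ordered within each mouse by the share of their UMIs in 8 multiciliated markers, such as *Foxj1*, *Dnah5* and *Tppp3*, and split into 3 equal groups, called terciles here. These are ranges of a score and not cell types, and 136 of the 857 cells lay within 10% of a dividing value. From the lowest to the highest tercile the multiciliated markers rose by design, from 791 to 3101 and 6145 CPM, and the basal markers, which the score did not use, fell from 1625 to 484 and 151 CPM. Of the basal markers, *Krt5* and *Trp63* made up little of this, at 24.6 and 5.77 CPM in the lowest tercile. The S-phase members summed to 832 ± 167, 478 ± 142 and 297 ± 25.1 CPM (SD, n = 6), and the mitotic members to 306 ± 71.6, 933 ± 207 and 1678 ± 106 CPM. The lists thus ran in opposite directions along the score. The share of all genes that differ between these terciles in 6 of 6 mice was not computed. The counts of members that follow thus have no background, and whether the members stand out was not tested. Of 19 S-phase members, 12 were higher in the lowest than in the highest tercile in 6 of 6 mice, and 2, *Rrm2* and *Gmnn*, were the reverse. Of 23 mitotic members, 21 were higher in the highest tercile in 6 of 6 mice and 0 the reverse, and the other 2, *Mki67* and *Ccna2*, were higher in the highest tercile in 5 of 6. *Mki67* was at 4.02, 12.5 and 7.88 CPM from the lowest to the highest tercile and *Ccna2* at 0.605, 1.69 and 2.09 CPM. With cells thinned to 5000 UMIs the counts in 6 of 6 mice were 6 and 12, whereas by the mean 14 of 19 S-phase members were still higher in the lowest tercile and 22 of 23 mitotic members in the highest, as against 15 and 23 unthinned.

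Cyclin E and several replication genes were among the 12 that fell along the score. *Ccne1* was at 99.0, 52.5, 66.0, 49.0, 85.4 and 49.7 CPM in the lowest tercile of mice 1, 2, 3, MT1301, MT1306 and MT1383, and at 7.94, 6.36, 6.47, 3.11, 8.08 and 5.92 CPM in the highest. Its mean in the lowest tercile, 66.9 CPM, stood above its 23.1 CPM in Basal6, and all 6 mice fell from the lowest to the highest tercile. *Pcna* went from 272 to 75.9 and 15.3 CPM, *Cdt1* from 61.2 to 26.3 and 4.41, *Mcm3* from 85.1 to 39.2 and 12.0, and *Mcm2* from 28.1 to 10.3 and 2.35. The helicase transcripts were still uneven there, with *Mcm5* at 6.14 CPM against 98.2 in Basal6. *Tk1* was at 0.950 CPM, and *Cdc6*, which loads the helicase at origins, at 0.627 CPM in the lowest and 1.09 CPM in the highest tercile. *E2f7*, at 94.4, 101 and 87.6 CPM, and *Rrm1*, at 103, 116 and 92.2 CPM, were nearly level across the terciles.

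Among the 21 mitotic members that rose along the score, *Ccna1* was at 0, 0.783, 0, 0, 0 and 7.62 CPM in the lowest tercile of the 6 mice and at 125, 160, 132, 155, 162 and 177 CPM in the highest. It was thus at or near 0 in the lowest tercile of all mice but MT1383. *Top2a* was at 16.3, 18.0, 26.0, 20.3, 14.8 and 53.1 CPM in the lowest and at 354, 328, 340.2, 323, 351 and 375 CPM in the highest. Its mean of 345 CPM there stood against 390.2 CPM over all Basal6 cells. *Cdc20* rose from 24.7 to 107 and 223 CPM, against 168 CPM over all Basal6 cells. *Aurka* rose from 11.2 to 52.1 and 93.6 CPM, against 36.3. These Basal6 means cover all cells of that cluster, which are split by their mitotic level below. *Cenpf* rose from 11.6 to 139 CPM, *Tpx2* from 12.0 to 92.9, *Ccnb1* from 6.15 to 62.5 and *Plk1* from 1.34 to 26.5. *Cdk1* changed less, from 188 to 311 and 355 CPM. Even in this tercile *Ube2c*, at 31.4 CPM, and *Mki67*, at 7.88 CPM, stayed far below their 422 and 232 CPM in Basal6. Of the early multiciliated genes, *Deup1* went from 124 to 368 and 572 CPM and *Ccno* from 354 to 464 and 532. *Mcidas* went from 138 to 172 and 132 CPM. *Gmnc*, at 7.72, 4.58 and 4.37 CPM, was higher in the lowest than in the highest tercile in 5 of 6 mice. The median depth of cells was 35767, 39916.5 and 39165 UMIs, and 10.4%, 28.2% and 22.9% of cells had a *Mki67* UMI.

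**Figure D3:**
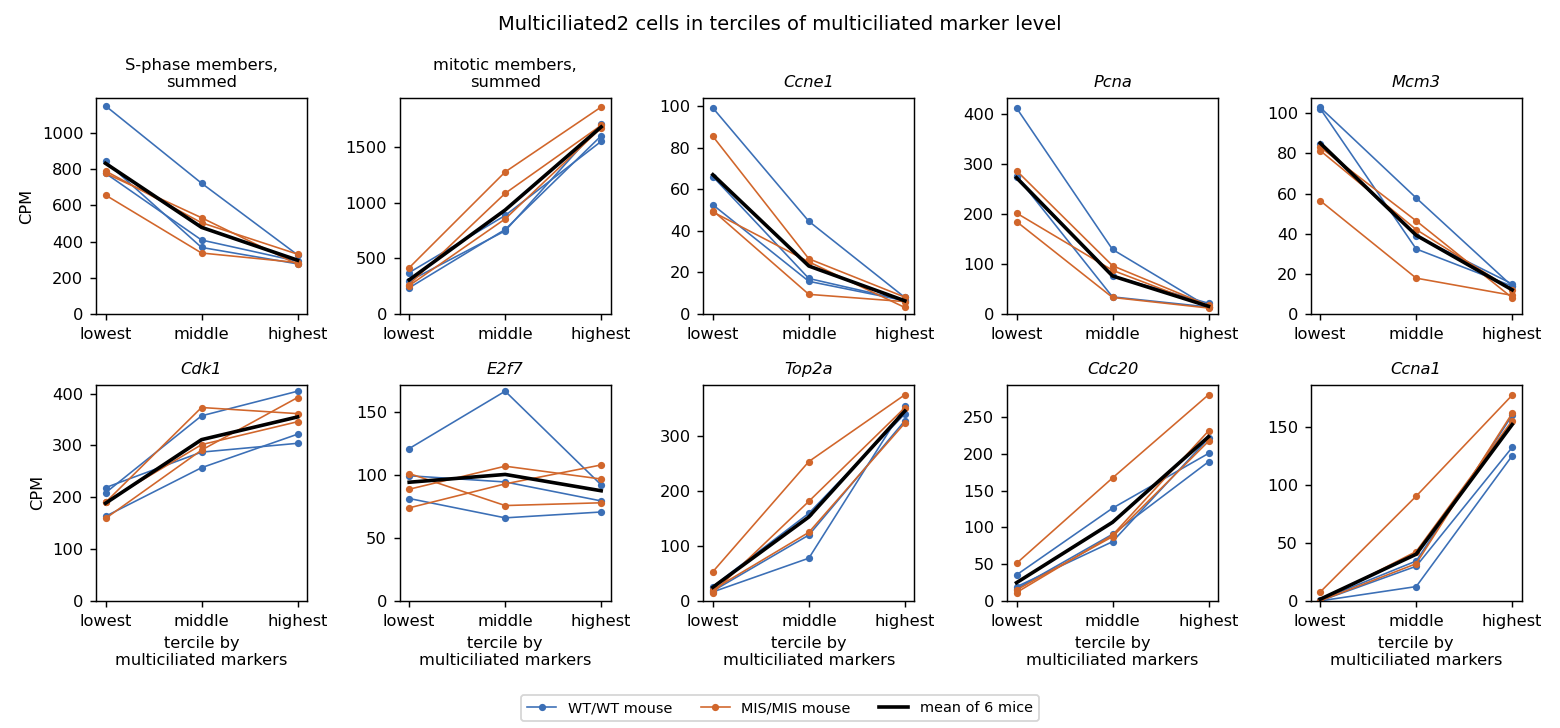
Levels in the 3 terciles of Multiciliated2 cells, ordered by multiciliated marker level, in CPM on linear axes from 0, with a thin line for each mouse coloured by genotype and a black line for the mean. The summed S-phase members fall and the summed mitotic members rise in every mouse, *Ccne1*, *Pcna* and *Mcm3* fall, *Top2a*, *Cdc20* and *Ccna1* rise, and *E2f7* stays near level.

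In Basal6 the members were split in another way. When its cells were divided by their share of UMIs in the mitotic members, the mitotic sum went from 249.9 to 2421 and 7108 CPM by design, and the S-phase sum from 1665 to 1635 and 1176 CPM. *Mcm2* fell from 99.2 to 64.8 and 31.4 CPM, whereas *Tk1* went from 57.7 to 91.7 and 105 CPM and *Rrm1* from 118 to 158 and 178 CPM. *Ccne1*, at 27.9, 32.4 and 10.1 CPM, was lowest in the most mitotic cells. The lowest of these *Tk1* values stood against at most 1.26 CPM in any tercile of Multiciliated2. *Top2a*, *Cdc20*, *Aurka* and *Cdk1*, which are part of this score, were at 750, 376, 80.6 and 462 CPM in the most mitotic Basal6 cells. In the highest tercile of Multiciliated2 they were at 345, 223, 93.6 and 355 CPM.

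Wider lists of cell cycle genes were also mixed. Over all genes, 12.9% were over 2-fold lower in Multiciliated2 than in Basal6 and 17.7% over 2-fold higher. Of 50 other S-phase genes, 33 (66%) were over 2-fold lower and 1 (2%) was over 2-fold higher, with a median log2 ratio of -1.55. The highest were *Wdr76* (1.20), *Dtl* (0.80), an adaptor of the ligase that destroys *Cdt1* protein, and *Slbp* (0.61), the histone mRNA binding protein, and among the lowest were *Prim1* (-4.72), the primase, and *Rpa2* (-3.79), a subunit of the protein that coats single-stranded DNA. Of 65 other mitotic genes, 50 (76.9%) were over 2-fold lower and 2 (3.08%) were higher, with a median of -1.63. *Pttg1* (1.43), securin, and *Ckap2l* (1.28) stood highest, then *Ckap5* (0.49), and the spindle motor *Kif15* (-4.93), *Depdc1a* (-4.53) and the condensin subunit *Ncapg2* (-4.10) lowest. Of 63 histone genes, picked by the start of their symbols, 41 reached 1 CPM. Of these, 23 (56.1%) were over 2-fold lower and 3 (7.32%) higher, with a median of -1.30. The list was not limited to histones of S phase. It holds *H1f0*, at 22.7 CPM in Multiciliated2 and 119 in Basal6, and *H1fx*, at 38.6 and 40.4.

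Of 24 inhibitors of the cycle and G1 cyclins, 3 (12.5%) were over 2-fold higher in Multiciliated2, under the 17.7% of all genes, and 11 (45.8%) over 2-fold lower, against 12.9%, with a median of -0.46. *Cdkn1a*, the inhibitor p21, was at 1463 ± 181 CPM in Multiciliated2 and 341 ± 89.1 CPM in Basal6, and it was higher in 6 of 6 mice. *Cdkn1c* had a mean log2 ratio of 1.37 ± 1.79 and was higher in 4 of 6 mice. Its level in Multiciliated2 was 3.54, 45.8, 3.90, 38.2, 3.24 and 80.8 CPM, against 2.49 to 7.15 CPM in Basal6, so the ratio rests on *WT/WT* mouse 2, MT1301 and MT1383. *Fbxo43* and *Fbxo5* encode the inhibitors of the anaphase-promoting complex Emi2 and Emi1. *Fbxo43* was at 18.9 ± 4.07 CPM in Multiciliated2 and 0.140 CPM in Basal6, and *Fbxo5* at 1.25 ± 0.427 and 51.3 ± 12.3 CPM, so that this pair was exchanged in the same way as the A-type cyclins. *Ccnd1*, cyclin D1, was at 54.2 ± 24.3 and 490.03 ± 95.8 CPM, and *Pkmyt1* was lower by -2.52. Of 25 genes of the multiciliated variant of the cycle and its centriole factors, 19 (76%) were over 2-fold higher in Multiciliated2, led by *Deup1* (7.98), *Foxj1* (7.95) and *Ccno* (7.29), whereas *E2f4* (0.11) and *Tfdp1* (0.01) differed little and *E2f3* was lower (-1.66).

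The second question was whether the *Dnaaf5* allele moved these genes. Sums per mouse were compared with limma's voom test, with p-values adjusted by the Benjamini-Hochberg method over all genes tested. In Basal6, 0 of 10981 genes passed an adjusted p of 0.05 (0%), members included, and 467 genes (4.25%) had an unadjusted p under 0.05. Of 19 S-phase members, 18 had a higher estimate in *MIS/MIS*, with a median log2 fold change of 0.11 against 0.00 over all genes, 3 had an unadjusted p under 0.05 and 4 had genotypes that did not overlap in CPM, against 9.77% of all genes. Over all genes tested in Basal6, 5530 had a higher and 5451 a lower estimate. *Ccne1* was at 18.9 ± 5.90 CPM in *WT/WT* and 27.4 ± 1.41 CPM in *MIS/MIS* (SD, n = 3), a log2 fold change of 0.69 with a standard error (SE) of 0.19. *Ccne2* was at 11.3 ± 1.25 and 18.0 ± 3.78 CPM (0.53, SE 0.20), and *E2f7* at 9.31 ± 2.47 and 12.97 ± 0.172 CPM (0.52, SE 0.20). These 3 and *Mcm6* were the members without overlap, and each had an adjusted p of 0.998 by limma. Without *WT/WT* mouse 2 the log2 fold change fell to 0.39 for *Ccne1* and 0.31 for *E2f7*. Of 22 mitotic members tested, 19 had a lower estimate in *MIS/MIS*, with a median of -0.07, and 0 had an unadjusted p under 0.05 or no overlap. *Cenpe* and *Hmmr* (both -0.32, SE 0.19) and *Mki67* (-0.28, SE 0.15) had the lowest p of these, with an adjusted p of 0.998. With a mouse left out these ran from -0.55 to -0.17 for *Cenpe*, -0.53 to -0.17 for *Hmmr* and -0.38 to -0.13 for *Mki67*, lowest in size without *WT/WT* mouse 3 for *Cenpe* and *Hmmr* and without MT1306 for *Mki67*. *Ccna1* was too low to be tested there.

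In Multiciliated2, 1 of 11674 genes passed (0.00857%), *Wdfy1*, which is no member and did not pass without *WT/WT* mouse 1, without *WT/WT* mouse 3 or with thinned cells, and 408 (3.49%) had an unadjusted p under 0.05. Here the directions were the other way round. Of 21 mitotic members tested, 18 had a higher estimate in *MIS/MIS*, with a median of 0.27 against -0.0045 over all genes, 3 had an unadjusted p under 0.05 and 7 did not overlap, against 7.77% of all genes. Over all genes tested in Multiciliated2, 5702 had a higher and 5972 a lower estimate. *Ube2c* was at 12.1 ± 4.42 CPM in *WT/WT* and 21.9 ± 3.79 CPM in *MIS/MIS* (0.79, SE 0.25), *Ccna1* at 54.7 ± 10.6 and 76.5 ± 15.3 CPM (0.46, SE 0.17) and *Aurka* at 47.8 ± 4.40 and 58.0 ± 4.72 CPM (0.27, SE 0.11). In all 3 the lowest *MIS/MIS* mouse lay above the highest *WT/WT* mouse, and each had an adjusted p of 0.987 by limma. Of 17 S-phase members tested, 12 had a lower estimate in *MIS/MIS*, with a median of -0.22, 1 had an unadjusted p under 0.05 and 2 did not overlap. *Mcm3* was at 51.04 ± 6.80 and 38.6 ± 10.2 CPM (-0.50, SE 0.22), *Pcna* at 138 ± 42.8 and 101 ± 29.8 CPM (-0.48, SE 0.26) and *Mcm5* at 3.06 ± 0.201 and 2.32 ± 0.286 CPM (-0.46, SE 0.30), with an adjusted p of 0.987. The *Mcm5* levels rest on few UMIs, 9, 26 and 10 in *WT/WT* mice 1 to 3 and 13, 7 and 28 in MT1301, MT1306 and MT1383. Without MT1383, which gave 342 of the 857 cells, the log2 fold change was -0.16 for *Mcm3*, -0.19 for *Pcna* and 0.28 for *Ccna1*, and without *WT/WT* mouse 1 it was -0.26 for *Pcna*. *Tk1*, *Cdc6*, *Ccna2* and *Aurkb* were too low to be tested. The multiciliated markers in this cluster summed to 2992 to 3235 CPM in *WT/WT* and 3415 to 4025 CPM in *MIS/MIS*, and the basal markers to 717 to 1026 and 520 to 691 CPM, both without overlap, and their part in these differences was not tested. The basal sum in this cluster was mostly *Krt15*. Over the whole cluster the mitotic sums were 873 to 934 CPM in *WT/WT* and 936 to 1206 CPM in *MIS/MIS*, without overlap. The S-phase sums, 488 to 737 and 418 to 539 CPM, overlapped. Terciles were cut within each mouse and so do not equalise the marker score between genotypes. Within each tercile the genotypes overlapped for the summed S-phase and mitotic members, for example 777 to 1149 and 656 to 789 CPM for the S-phase members in the lowest and 1549 to 1702 and 1670 to 1857 CPM for the mitotic members in the highest. They did not overlap for the multiciliated markers in the middle tercile (2482 to 2926 and 3059 to 4026 CPM) or the basal markers in the lowest (1745 to 1998 and 1092 to 1649 CPM).

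**Figure D4:**
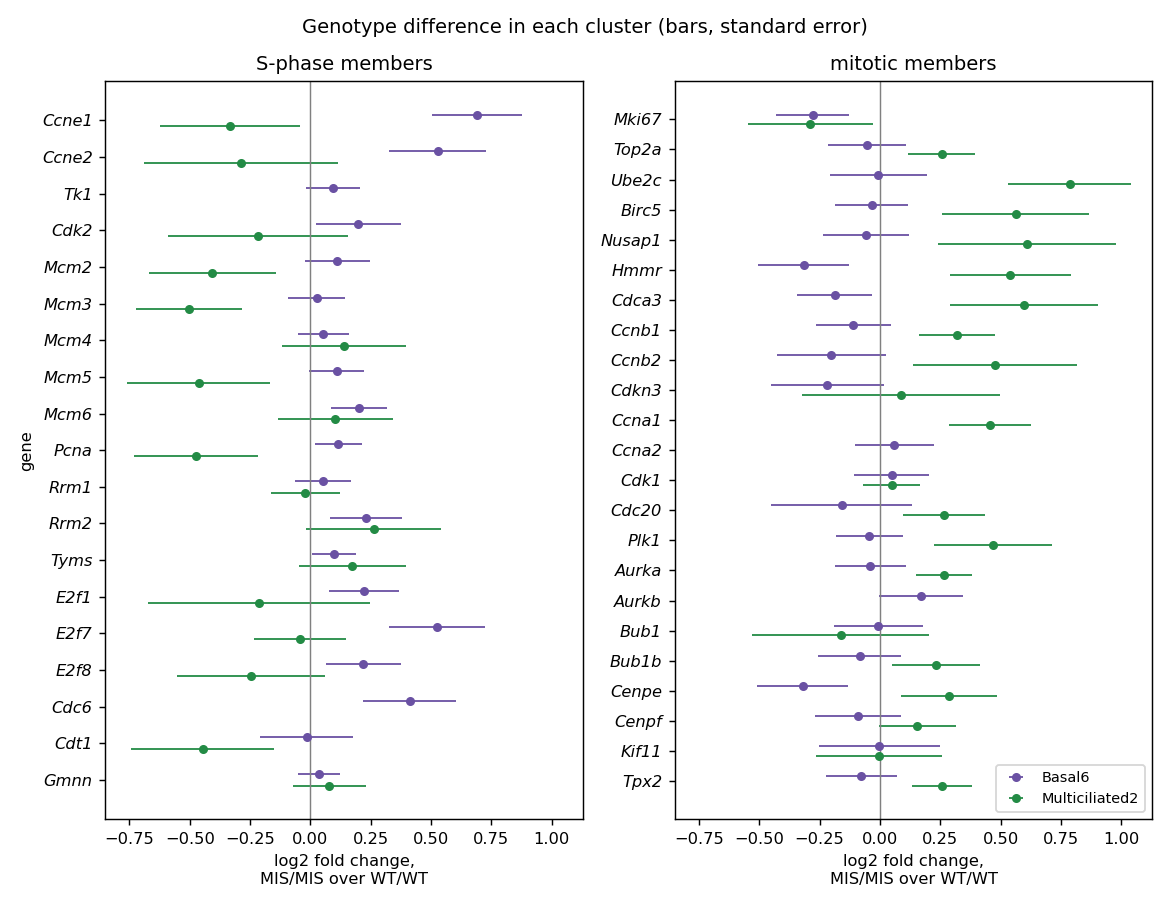
Log2 fold change of *MIS/MIS* against *WT/WT* for each member tested in Basal6 and in Multiciliated2, as points coloured by cluster with bars of 1 SE. S-phase members lie mostly above 0 in Basal6 and below 0 in Multiciliated2, mitotic members mostly the reverse, and 0 of them passed an adjusted p of 0.05.

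Whether the genotype effect differed between the clusters was tested per mouse, with limma on the difference of log2 CPM between Multiciliated2 and Basal6. Of 10429 genes, 0 passed an adjusted p of 0.05 (0%), and 502 (4.81%) had an unadjusted p under 0.05. Of the 37 members tested, 16 had one, 7 S-phase and 9 mitotic. The lowest adjusted p of a member was 0.968. The difference was below 0 for 15 of 17 S-phase members, with a median of -0.44, and above 0 for 19 of 20 mitotic members, with a median of 0.37. The median over all genes was -0.008, and the share of all genes on each side of 0 was not computed. It was -0.86 (SE 0.22) for *Ccne1*, -1.08 (SE 0.33) for *Ccne2*, 0.88 (SE 0.23) for *Ube2c*, 0.85 (SE 0.23) for *Hmmr* and 0.59 (SE 0.16) for *Cenpe*. The members move together within a cell, so their counts are not independent of each other, and they rest on the same 6 mice. The number of members with an unadjusted p under 0.05 was 5 of 38 without *WT/WT* mouse 1, 7 of 38 without MT1306, 10 of 38 without *WT/WT* mouse 3, 9 of 32 without MT1383 and 2 of 16 with thinned cells. It was 17 of 33 without *WT/WT* mouse 2 and 15 of 33 without MT1301. With upper-quartile scaling, no low-count filter and the stated cell filters it was 16 of 37, 16 of 42 and 16 of 35. Over these settings 3.44% to 6.58% of all genes had such a p.

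Over all cells of a mouse together, 0 of 16461 genes passed (0%), with 937 at an unadjusted p under 0.05 by limma, and the median log2 fold change was -0.01 for S-phase and 0.07 for mitotic members. In such sums fewer cells of a type and less RNA per cell cannot be told apart. The share of cells in Basal6 was 1.94%, 4.62% and 3.68% in *WT/WT* mice 1 to 3 and 4.91%, 2.73% and 2.44% in MT1301, MT1306 and MT1383, means of 3.41% ± 1.36 and 3.36% ± 1.35 (SD, n = 3, p = 1, two-sided exact permutation test). The share in Multiciliated2 was 1.94%, 4.17% and 2.31% in *WT/WT* and 3.45%, 2.06% and 5.10% in *MIS/MIS* mice (p = 0.6, two-sided exact permutation test). After adjustment over the 2 shares both p were 1, and with 3 mice against 3 this test cannot go below 0.1. The genotypes overlapped in both shares.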

How the data were processed

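Droplet single-cell RNA-Seq was carried out on ALI cultures of 6 mice. Per the labels' processing notes the reads were processed with Cell Ranger 7.1.0 and mm10. Filtering and clustering were done in Seurat by the authors, and what they deposited are unnormalized UMI counts together with each cell's cluster name. The deposited table joins its values with a mistyped tab, and all were whole numbers whose sums matched the authors' total for 23871 cells. Because of this separator the table's unit was recorded as other than counts, and limma was used where a count test had been planned. Cell prefixes give the mouse, and 0 columns were without a sample or group. The 3 *MIS/MIS* animal numbers match no sample title, so they served as replicates of the genotype only.

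Counts were summed per mouse and cluster. Means over mice use mice with at least 10 cells of a cluster. Ratios between clusters are log2 with 1 CPM added, per mouse, and are listed for genes of at least 1 CPM. The genotype test took genes reaching 10 counts at the median library size in 3 mice and a total of at least 15, scaled by TMM factors (trims of 0.3 and 0.05), and tested with limma 3.58.1 in R 4.3.3 (voom; for the difference between clusters, trend), with a Benjamini-Hochberg threshold of 0.05. The test was checked on simulated counts in which 200 genes differed 2-fold. With dispersion 0.02, 86.5% of these were recovered in Basal6 (10886 genes), 79.5% in Multiciliated2 (11524 genes) and 38.5% for the difference between clusters (10307 genes). At a dispersion of 0.1 it was 0% and 2.5% in the clusters. Whether the cultures of a genotype were prepared separately is not given in the sources used here beyond 1 library per mouse. Python 3.11.15 served for the rest (pandas 2.3.3, numpy 2.4.6, matplotlib 3.10.9, scipy 1.17.1). Promoter windows are RefSeq's.

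The members and lists were chosen with earlier results of these data known. Values in every mouse are given for the 4 S-phase and 4 mitotic members with the highest ratio of Basal6 to the rest, the 5 highest and 5 lowest in Multiciliated2 against Basal6, and *Mki67*, *Top2a*, *Ccna1*, *Cdk1* and *Plk1*. By genotype the 3 members with the lowest p in each direction are named. The value of 1 gene of a wider list is not reported here. Other genes are named from fixed lists, by their ratio of Multiciliated2 to Basal6, and pairs of related genes, tercile examples, *E2f4*, *Tfdp1* and those printed for promoters were chosen after their values were seen. Alternatives were upper-quartile scaling, no low-count filter, each mouse left out, cells thinned to 5000 UMIs, the stated filters on cells (2500 to 7500 genes, at most 25% mitochondrial), 5 CPM added, the mean of each cell's CPM, and Multiciliated2 cells without *Mki67* or *Top2a*. The terciles, the difference between clusters under each alternative, and the cells without *Mki67* alone were added after the data were seen.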

Additional observations from a re-analysis of the deposited data

How the results depend on the processing

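The paper describes the *WT/WT* mice as littermates of the *MIS/MIS* mice. No paired analysis was possible, because the labels do not name the litter of any mouse. The edgeR and DESeq2 alternatives were not run, since the table is not recorded as counts. The log2 fold changes by genotype of the 12 named members kept their direction and stayed short of the threshold in the 114 values that could be fitted, with adjusted p between 0.338 and 1.00 over them. *Ccne2* and *Ube2c* with thinned cells, and *Mcm5* with thinned cells or without *WT/WT* mouse 2, MT1301 or MT1383, were too low to be tested. With cells thinned to 5000 UMIs, 2 genes passed in Basal6 (*Cyp2a5* and *Gm47283*), 1 in Multiciliated2 (*Gm47283*, and not *Wdfy1*) and 1 in the difference between clusters (*Cyp2a5*), and none is a member. Leaving out 1 mouse gave 0 to 2 genes in Multiciliated2 (0 without *WT/WT* mouse 1 or mouse 3), 0 to 268 in all cells (268 without MT1301), and 0 to 1 in the difference between clusters. The difference in the Basal6 share, *MIS/MIS* minus *WT/WT*, was -0.05 percentage points, 0.366 as a share of basal cells, and -0.826 to 0.554 with a mouse left out. For Multiciliated2 it was 0.729, -6.63 as a share of multiciliated cells, and -0.0521 to 1.47 with a mouse left out (-0.0521 without MT1383). The tercile counts in 6 of 6 mice went from 12 to 6 for S-phase and from 21 to 12 for mitotic members with thinned cells, and the cause was not tested. The S-phase median of Multiciliated2 against Basal6 went from -2.33 to -1.76 with 5 CPM added and to -1.57 without cells holding *Mki67* or *Top2a*. Against the other multiciliated clusters, over all 19 members, it went from 1.11 to 0.79 and 2.18. The mitotic median against Basal6 went from -2.84 to -3.28 with thinned cells, -2.13 with 5 CPM added and -5.68 without cells holding *Mki67* or *Top2a*, and against the other multiciliated clusters from 3.18 to 1.76 and 0.0775 in the last 2. That last choice removes cells by 2 of the members themselves. The spread over mice left out was at most -2.41 to -2.24 and 1.08 to 1.24 for the S-phase medians, and -2.94 to -2.74 and 3.14 to 3.31 for the mitotic ones. At the depth of these libraries, levels under about 1 CPM in 1 cluster rest on a few UMIs.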
